A study of Mus musculus with 15 samples.

Results

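The metabotropic glutamate receptors measured here were Grm2, Grm3, Grm4, Grm5, Grm7 and Grm8, 6 genes of 20972 with a symbol on a 2-colour mouse expression array. They were chosen by name: every probe whose RefSeq identifier belongs to one of these symbols was taken, which gave 9 probes of 55681. Grm5 had 3 probes, Grm4 had 2 and the others had 1 each. The other members of the family were not analysed here. All 6 genes passed the filter on dim probes, which asked for a hemibrain signal well above background on at least 5 arrays.

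The arrays compared hemibrain RNA of male C57BL/6J mice fed 1 of 3 diets of equal caloric content for 24 weeks, starting at 3 weeks of age. What set the diets apart was the balance of polyunsaturated fats, with n-3 and n-6 fatty acids at 7:1 in the ERD diet, 1:1 in the BLD diet and 1:6 in the STD diet. Each diet had 5 arrays, each of 1 animal. No allele, drug or other agent was given to any group, and all groups share strain, sex, tissue and feeding time. Every array carried hemibrain RNA in Cy5 and a pool of RNA from 11 mouse cell lines in Cy3, so each value is a log2 ratio of hemibrain over the same cell-line pool. A hemibrain mixes many regions and cell types, so fewer cells of a type and less RNA per cell cannot be told apart in any value below.

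Metabotropic glutamate receptors are G protein-coupled receptors for glutamate, the main excitatory transmitter of the brain, and they adjust synaptic strength rather than carry the fast synaptic current. Group I receptors, here Grm5, sit mainly beside the postsynaptic density and activate phospholipase C through Gq proteins. Group II receptors (Grm2 and Grm3) and group III receptors (Grm4, Grm7 and Grm8) couple to Gi and Go proteins, lower cyclic AMP and act largely as brakes on transmitter release. Grm3 is also made by astrocytes, Grm4 is known for the parallel fibre synapses of cerebellar granule cells, and Grm7 is concentrated at presynaptic active zones.

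None of the 6 receptor genes passed the test in any of the 3 comparisons of diets. The test was a limma model over all 15 arrays with Benjamini-Hochberg adjustment over 22557 genes and a threshold of 0.05. Between ERD and STD hemibrains, 0 of 6 receptors were called, where 0.217% of all genes were called, and 0 receptors had an unadjusted p under the same threshold, against 14.6% of all genes. In BLD against STD, 0 of 6 were called, against 0.00887% of all genes, and 0 had such an unadjusted p, against 10.8%. In ERD against BLD, 0 of 6 were called, against 0% of all genes, and only Grm7 had an unadjusted p under the threshold, against 10.4% of all genes. With shares of calls this small, a count of 0 among 6 genes is no result about the receptors.

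The direction of the receptors' differences depended on how the ratios were made. In ERD against STD, 5 of the 6 receptors had a lower mean, as did 47.0% of all genes, with a median log2 difference of -0.17 beside a median of 0.02 over all genes tested. Their differences ran between -0.74 for Grm5 and 0.30 for Grm3, and those of Grm2 and Grm4 were both -0.03, well within their standard errors. In the same comparison the 9 measured neuron markers had 2 higher and 7 lower means, with a median log2 difference of -0.26. In ERD against BLD, 5 of 6 were lower, as were 58.0% of all genes, with a median log2 difference of -0.37 beside -0.04 over all genes. In the deposited ratios 1 of 6 was lower there, with a median of 0.21, and with a normexp offset of 1 it was 2 of 6. In BLD against STD, 2 of 6 were lower, as were 39.5% of all genes, with a median log2 difference of 0.12 beside 0.05 over all genes. In the deposited ratios 5 of 6 were lower in BLD than in STD, with a median of -0.61, and likewise 5 of 6 with offset 1. The count of 5 of 6 lower in ERD against STD was the same in both of these settings, and with Cy5 alone it was 3 of 6. The receptors counted were not the same ones: in the deposited ratios Grm3 was lower (-0.15) and Grm8 higher (0.02). The 3 comparisons share arrays pairwise, so their directions are not independent of each other. The standard errors of the receptors' differences lay between 0.18 (Grm2) and 0.46 (Grm3 and Grm5), against a median of 0.16 for all genes.

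**Figure D1:**
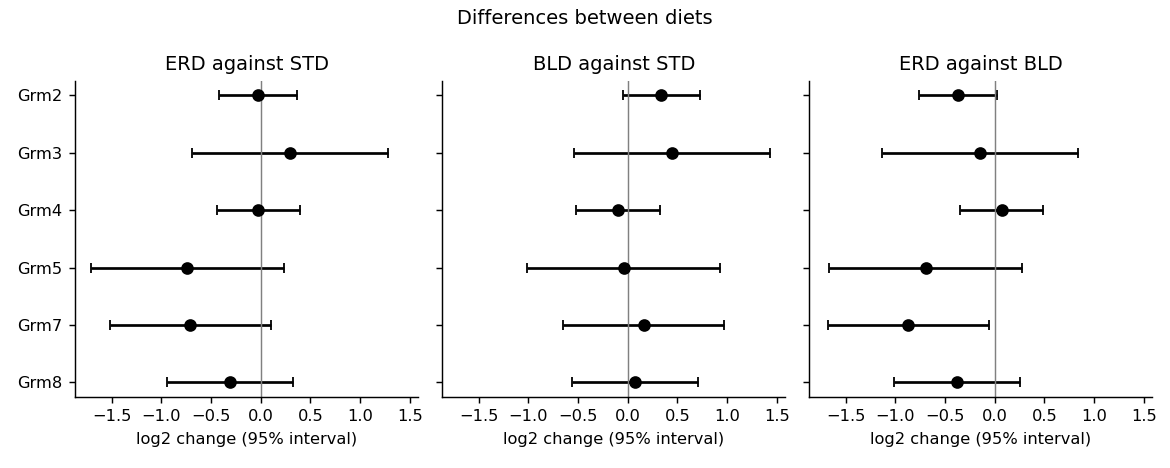
The log2 difference between diets (horizontal axis) with its 95% interval is shown for the 6 receptor genes in ERD against STD, BLD against STD and ERD against BLD, 5 arrays per diet. All intervals cover 0 except that of Grm7 in ERD against BLD, and the widest belong to Grm3 and Grm5.

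Grm5, the group I receptor, had the largest negative difference of the 6 receptors in ERD against STD. Its brightest probe, which stands for the gene in the test, gave log2 ratios of 3.91, 6.33, 5.04, 4.0 and 5.64 in the ERD hemibrains. The same probe gave 6.50, 4.92, 5.34, 5.70 and 5.94 in the BLD hemibrains, against 6.42, 6.24, 5.51, 5.85 and 4.60 in the STD hemibrains. ERD 1 and ERD 4 lay below every BLD and STD array, while the other 3 ERD arrays lay among them, so the groups overlapped. The mean log2 ratio was 4.98 ± 1.04 in ERD, 5.68 ± 0.60 in BLD and 5.72 ± 0.72 in STD (SD, n = 5 each). The log2 difference was -0.74 ± 0.46 (SE) in ERD against STD, with a 95% interval of -1.71 to 0.23 and a limma adjusted p of 0.464. It was -0.70 in ERD against BLD (limma adjusted p = 0.604) and -0.04 in BLD against STD (limma adjusted p = 0.982). After loess the log2 Cy5 level, not scaled between arrays, differed by -0.77 in ERD against STD and the Cy3 level of the cell-line pool by -0.03. With Cy5 alone, quantile normalized between arrays, the difference was -0.40. In ERD against BLD the deposited ratios gave a difference of the opposite sign, 0.85.

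The other probes of Grm5 gave different sizes. The dimmest of the 3 gave log2 ratios of 0.08, 0.13, 0.51, 0.36 and 0.53 in ERD hemibrains and of 1.42, 0.89, 0.09, 1.86 and 0.57 in BLD hemibrains, against 0.92, 1.24, 1.06, 1.15 and 0.89 in STD hemibrains. On this probe all 5 ERD arrays lay below all 5 STD arrays, whereas the BLD arrays spanned both groups. It was 1 of 9 receptor probes without overlap in that comparison. Groups that do not overlap were found for 3.76% of the 26348 probes in ERD against STD. With each probe fitted singly, its log2 difference was -0.73 ± 0.25 (SE) in ERD against STD, and the limma adjusted p was 0.214, where 0.209% of probes were called. In BLD against STD 0 of the 9 probes were called singly, against 0.00759% of probes, and 1, that of Grm2, had no overlap, against 2.79%. The dimmest Grm5 probe was well above background in hemibrain on 3 of 5 ERD arrays, 4 of 5 BLD arrays and 5 of 5 STD arrays. The remaining probe, listed under another RefSeq identifier of the gene, was above background in hemibrain on all 15 arrays. It gave a log2 difference of -0.17 ± 0.21 (SE) in ERD against STD (limma adjusted p = 0.740). Which transcripts the probes read could not be checked. Across the 15 arrays the 3 probes correlated pairwise with Pearson's r of 0.35, 0.43 and 0.59, given as a description.

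In the values of the main test both group II receptors had their highest mean on the BLD diet, without passing the test. Grm2, a mainly presynaptic receptor, gave log2 ratios of 0.19, 1.02, 1.45, 1.17 and 0.86 in ERD hemibrains. It gave 1.58, 1.21, 1.23, 1.26 and 1.25 in BLD hemibrains, against 1.16, 1.14, 0.87, 0.91 and 0.76 in STD hemibrains. Every BLD array lay above every STD array, while the ERD arrays reached both below and above the STD range. This was the only receptor of the 6 whose groups did not overlap in BLD against STD, where 2.89% of all genes did not overlap. Between ERD and STD, 0 of 6 receptors had groups that did not overlap, against 3.78% of all genes, and in ERD against BLD 0 of 6, against 1.37%.

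The mean log2 ratio of Grm2 was 0.94 ± 0.47 in ERD, 1.31 ± 0.16 in BLD and 0.97 ± 0.18 in STD (SD, n = 5 each). The log2 difference in BLD against STD was 0.34 ± 0.18 (SE), a fold of 1.26 with a 95% interval of -0.05 to 0.73 on the log2 scale, and its limma adjusted p was 0.494. After loess the mean log2 Cy5 level, not scaled between arrays, differed by 0.71 in this comparison. That of the cell-line pool in Cy3 differed by 0.37. With Cy5 alone, quantile normalized between arrays, the Grm2 difference was 0.31. The Cy3 level was 7.32, 7.69 and 7.54 on BLD 2, BLD 3 and BLD 4, the BLD arrays of the later scan day, and 7.52 on ERD 4, the other array of that day. It was 6.86 and 6.87 on BLD 1 and BLD 5, against 6.67 to 7.02 on the STD arrays, all of the earlier day. Within the earlier day, with 2 BLD and 5 STD arrays, the Grm2 difference was 0.45. In the deposited ratios it was 0.013. In ERD against BLD the log2 difference was -0.37 ± 0.18 (SE) with a limma adjusted p of 0.507, and 4 of 5 ERD arrays lay below every BLD array. The Grm2 signal in hemibrain was not well above background on ERD 1, the lowest array, and was above it on the other 14.

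Grm3, the group II receptor that astrocytes also make, gave log2 ratios of 3.00, 4.05, 1.40, 2.07 and 2.05 in ERD hemibrains. BLD hemibrains gave 1.86, 2.25, 3.70, 2.41 and 3.08, against 2.98, 2.70, 2.28, 1.85 and 1.30 in STD hemibrains. All 3 diets covered much the same range, and only ERD 2 and BLD 3 lay clearly above the rest. The mean log2 ratio was 2.51 ± 1.03 in ERD, 2.66 ± 0.73 in BLD and 2.22 ± 0.67 in STD (SD, n = 5 each). In ERD against STD the log2 difference was 0.30 ± 0.46 (SE) with a limma adjusted p of 0.797, and it was -0.09 without ERD 2. In BLD against STD it was 0.44 ± 0.46 (SE) with a limma adjusted p of 0.750. The deposited ratios gave -1.03 there. In those ratios the mean of Grm3 was lowest in BLD, at 5.65, against 6.54 in ERD and 6.69 in STD. The 10 measured astrocyte markers, among them Gfap and Aqp4, had 0 members called by limma, with 1 higher and 3 lower by unadjusted p in ERD against STD (14.6% of all genes in either direction), and their mean log2 ratio per array ran between 3.13 and 3.58 in ERD, 3.20 and 3.45 in BLD, and 3.27 and 3.45 in STD.

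**Figure D2:**
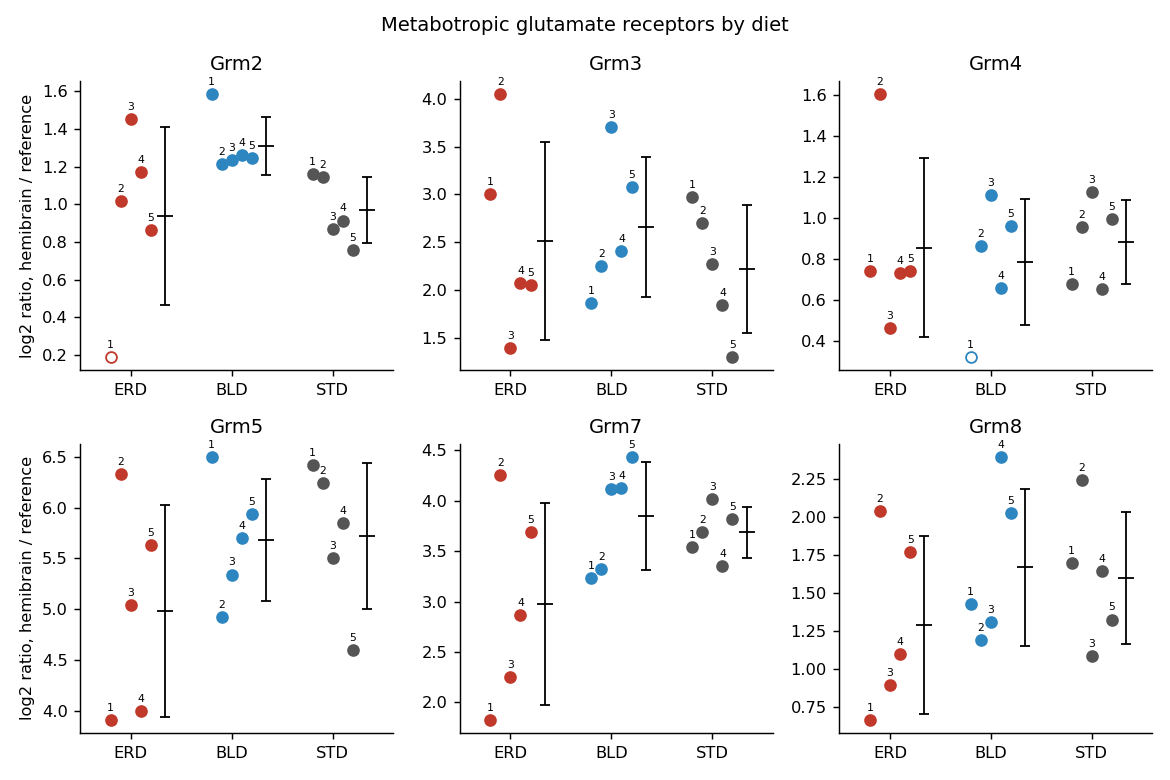
The log2 ratio of hemibrain over the cell-line pool (vertical axis) is shown for each of the 6 receptor genes on each array, with the diets ERD, BLD and STD from left to right. Numbers are replicates, open points are arrays whose hemibrain signal was not well above background, and the black dash and bar give the mean and SD of 5 arrays. The ERD points spread the most for Grm2, Grm3, Grm4, Grm5, Grm7 and Grm8 alike, and BLD lies above STD without overlap for Grm2.

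Group III includes Grm7 and Grm8, whose log2 ratios correlated across the arrays (Pearson's r 0.71 over 15 arrays, as for Grm5 with Grm8). Their promoters are printed because they are 2 receptors of the same group that varied together, and both lie on mouse chromosome 6. The sequences are the 250 bases before the start farthest upstream, from RefSeq on GRCm38.p6. Of the 6 receptors, 4 had promoters in that table. The capitals mark GGGCGG, the core of a GC box, searched on both strands and found once in each. The windows are chr6:110645262-110645511 on the plus strand for Grm7 and chr6:28135147-28135396 on the minus strand for Grm8.
Grm7: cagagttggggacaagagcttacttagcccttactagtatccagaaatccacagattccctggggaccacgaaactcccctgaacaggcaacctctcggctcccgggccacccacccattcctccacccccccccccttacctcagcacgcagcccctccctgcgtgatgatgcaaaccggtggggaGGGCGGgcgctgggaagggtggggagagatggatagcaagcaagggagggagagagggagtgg
Grm8: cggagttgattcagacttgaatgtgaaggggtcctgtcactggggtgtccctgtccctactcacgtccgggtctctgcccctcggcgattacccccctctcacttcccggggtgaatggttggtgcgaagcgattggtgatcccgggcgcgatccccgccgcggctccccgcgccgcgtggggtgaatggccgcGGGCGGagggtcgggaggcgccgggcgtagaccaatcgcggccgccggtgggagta
The same hexamer occurred in 32.7% of 32851 promoter windows of this length, so its presence is common. The Grm7 window held 8 CpG dinucleotides and the Grm8 window 29, beside a median of 6 over all windows.

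Grm7, a presynaptic receptor with low affinity for glutamate, had the only unadjusted p under the threshold among the 6 genes of the main test, in ERD against BLD. Its log2 ratios were 1.83, 4.26, 2.25, 2.87 and 3.69 in ERD hemibrains. They were 3.23, 3.32, 4.12, 4.13 and 4.44 in BLD hemibrains, against 3.54, 3.69, 4.02, 3.35 and 3.82 in STD hemibrains. ERD 1, ERD 3 and ERD 4 lay below every BLD and every STD array, ERD 2 lay above every STD array, and ERD 5 lay among them. The mean log2 ratio was 2.98 ± 1.00 in ERD, 3.85 ± 0.54 in BLD and 3.69 ± 0.26 in STD (SD, n = 5 each).

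For Grm7 the log2 difference in ERD against BLD was -0.87 ± 0.38 (SE), with a 95% interval of -1.68 to -0.06. Its unadjusted p in limma was 0.0372 and its adjusted p was 0.464, so it did not pass. In ERD against STD the log2 difference was -0.71 ± 0.38 (SE) with a limma adjusted p of 0.402. The ERD against STD difference was -0.42 without ERD 1 and -1.03 without ERD 2, so it depended on single arrays. After loess the Cy5 level, not scaled between arrays, differed by -0.85 in ERD against BLD and the Cy3 level by 0.01. The ERD against BLD difference was -0.16 with Cy5 alone quantile normalized between arrays, -0.25 with a normexp offset of 1, -0.42 with the share of spots detected as a covariate and 0.054 in the deposited ratios. Its size thus differed between settings and its direction reversed in the deposited ratios, and the reason was not tested.

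Grm8, another presynaptic group III receptor, gave log2 ratios of 0.66, 2.04, 0.89, 1.1 and 1.77 in ERD hemibrains. BLD hemibrains gave 1.43, 1.19, 1.31, 2.40 and 2.03, against 1.70, 2.24, 1.08, 1.65 and 1.33 in STD hemibrains. ERD 1 and ERD 3 were below every array of the other diets, and the other ERD arrays lay within their range. The log2 difference was -0.31 ± 0.30 (SE) in ERD against STD (limma adjusted p = 0.649) and -0.38 ± 0.30 (SE) in ERD against BLD (limma adjusted p = 0.677).

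Grm4, the receptor known from cerebellar parallel fibres, was dim in hemibrain, where its brighter probe had a Cy5 intensity of 13 to 60.5 above background and was not well above it on BLD 1. That probe gave log2 ratios of 0.74, 1.60, 0.46, 0.73 and 0.74 in ERD hemibrains and of 0.32, 0.86, 1.11, 0.66 and 0.96 in BLD hemibrains, against 0.68, 0.96, 1.12, 0.65 and 1.00 in STD hemibrains. The diets overlapped widely, with ERD 2 alone above the rest. The log2 difference was -0.03 ± 0.20 (SE) in ERD against STD, with a 95% interval of -0.45 to 0.39 and a limma adjusted p of 0.965. It was -0.10 in BLD against STD (limma adjusted p = 0.877).

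The second Grm4 probe did not follow the first: the 2 correlated with Pearson's r of -0.47 over the 15 arrays. It gave log2 ratios of -0.02, 0.17, 0.69, 0.53 and 0.38 in ERD hemibrains and of 1.26, 0.71, 0.16, 1.43 and 0.56 in BLD hemibrains, against 0.57, 1.12, 0.69, 0.60 and 0.53 in STD hemibrains. The log2 difference, fitted for this probe singly, was -0.35 ± 0.22 (SE) in ERD against STD (limma adjusted p = 0.469). Its hemibrain signal was well above background on 13 of 15 arrays, with 3 of 5 in ERD, and its cell-line signal on 0 of 15. The 8 measured markers of cerebellar granule and Purkinje cells had 0 members called by limma, with 8 of 8 higher in BLD against STD and 1 of these by unadjusted p (10.8% of all genes in either direction), and their mean log2 ratio per array ran between 0.81 and 1.37 in ERD, 1.13 and 1.59 in BLD, and 0.92 and 1.19 in STD.

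**Figure D3:**
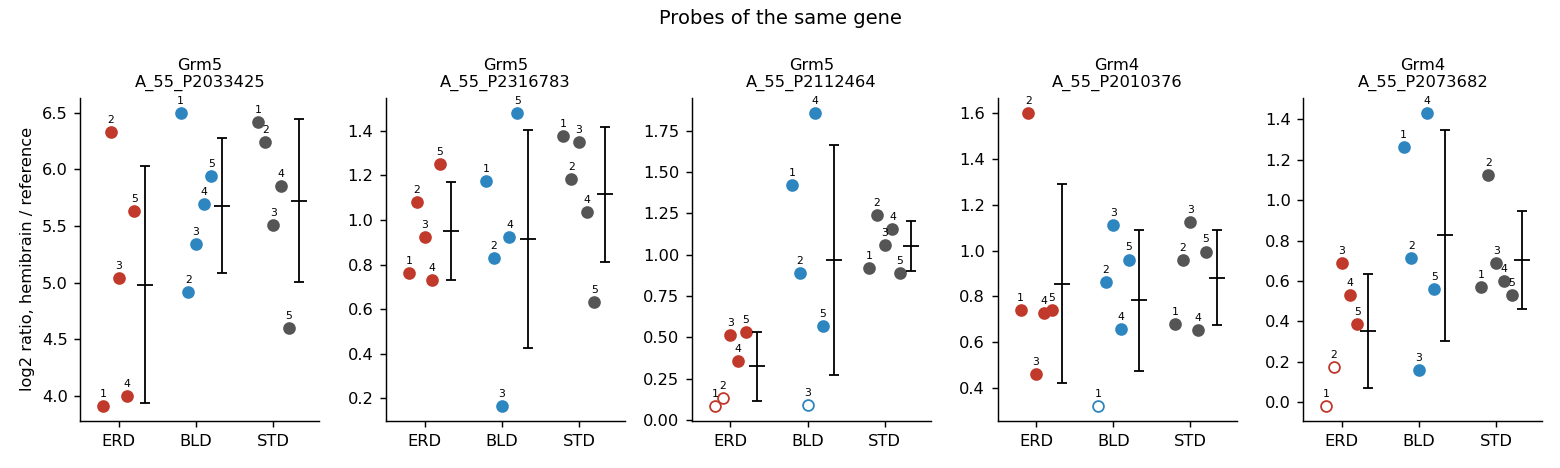
Log2 ratios (vertical axis) of the 3 Grm5 probes and 2 Grm4 probes are shown on the ERD, BLD and STD arrays, with points, marks and bars as in the plot by array. On the dimmest Grm5 probe every ERD point lies below every STD point, which is not so on the other probes of the gene.

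The arrays differed in quality as well as in diet. The number of spots with hemibrain signal above background lay between 17720 on ERD 1 and 31991 on BLD 4, and ERD 1 also had the lowest median correlation with the other arrays, 0.88. ERD 1 was the lowest ERD array for 4 receptors (Grm2, Grm5, Grm7 and Grm8), and ERD 2 was the highest for 5 (all but Grm2). Averaged over the 6 receptors, the log2 ratio minus the STD mean was -0.79 on ERD 1, 0.70 on ERD 2, -0.60 on ERD 3, -0.52 on ERD 4 and -0.05 on ERD 5. On the BLD arrays the same average lay between -0.22 and 0.44, and on the STD arrays themselves between -0.38 and 0.32. With each array's share of detected spots as a covariate, 3 of 6 receptors were lower in ERD against STD. The difference there was -0.39 for Grm7, -0.57 for Grm5 and -0.075 for Grm8, closer to 0 than without it. For Grm3 it moved away from 0, from 0.30 to 0.46, and for Grm2 and Grm4 it changed sign. In ERD against BLD the difference with this covariate was -0.42 for Grm7, -0.46 for Grm5 and -0.045 for Grm8, and for Grm3 it changed sign. With arrays weighted by their fit, ERD against STD gave -0.65 for Grm7, -0.87 for Grm5 and -0.31 for Grm8.

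The receptors spread more between arrays than most genes. The residual SD of log2 ratios within diets was taken as moderated by limma, which draws each gene's spread toward a common value. It was 0.73 for Grm3, 0.72 for Grm5, 0.60 for Grm7 and 0.47 for Grm8, against a median of 0.26 over all 22557 genes. These values stood at the 98.2, 98.0, 96.1 and 91.0 percentiles of all genes, while Grm4 and Grm2 stood at the 69.3 and 63.0 percentiles. The SD on the ERD diet was larger than that on the STD diet for 6 of 6 receptors, and the same held for 71.6% of all genes. The ratio of the SD in ERD to the SD in STD was 3.92 for Grm7, 2.68 for Grm2, 2.10 for Grm4, 1.54 for Grm3, 1.45 for Grm5 and 1.34 for Grm8, with a median of 1.44 over all genes. The first 3 of these stood at the 92.8, 83.4 and 72.9 percentiles of all genes. Grm3, Grm5 and Grm8 stood at the 54.6, 50.8 and 45.4 percentiles.

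Both scan days and some slides held arrays of more than 1 diet, so diets could be compared within those. BLD 4, STD 3 and STD 5 were each the only array on their slide, so they add nothing to a comparison within slides. A shared slide gave 1 array of a diet against 1 or 2 of another. Grm7 in ERD minus BLD was -0.85, -1.41 and -0.74 on the 3 slides that held both diets. Grm5 gave -1.13, -2.59 and -0.30 on the same slides. Grm2 gave -0.05, -1.39 and -0.38, and Grm8 gave -0.15, -0.77 and -0.26. Grm3 gave -0.90, 1.14 and -1.03, and Grm4 gave -0.26, 0.42 and -0.22. On the 3 slides that held both ERD and STD, Grm7 gave 0.57, -1.30 and 0.34 and Grm5 gave 0.09, -1.37 and -0.21. So the values of Grm2, Grm5, Grm7 and Grm8 were lower in ERD than in BLD on each of the 3 shared slides. For each of these genes the largest such difference was on the slide of ERD 1, where Grm3 and Grm4 were instead higher in ERD. ERD 1 had the fewest spots above background, 17720. In ERD against STD Grm5 was lower on 2 of 3 slides and Grm7 on 1 of 3. With the share of detected spots as a covariate, 0 of 6 receptors had an unadjusted p under the threshold in ERD against BLD. Over all genes the share was 6.61%. With slide as a fixed block, 4 of 6 receptors had an unadjusted p under the threshold in ERD against BLD, against 10.8% of all genes, and 0 of 6 were called. The differences in that fit were -1.31 for Grm5, -1.05 for Grm7, -0.43 for Grm8 and -0.53 for Grm2, with limma adjusted p of 0.391, 0.391, 0.450 and 0.453. In ERD against STD the same fit gave -0.14 for Grm7, and in BLD against STD 0.91. The later of 2 scan days held 4 arrays and no STD array. Within the earlier day, Grm7 was -0.68 in ERD minus STD and -0.83 in ERD minus BLD, and within the later day -0.99 in ERD minus BLD. The only slide with both BLD and STD gave 0.33 for Grm2 in BLD minus STD, and the earlier scan day gave 0.45.

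The cell-line pool set a limit on the ratios of the receptors other than Grm2. On the probes of Grm7 and Grm8 the Cy3 signal was well above background on 0 of 15 arrays, and on those of Grm3 and the brightest of Grm5 on 2 of 15, all BLD arrays. On the brighter Grm4 probe it was well above background on 8 of 15 arrays, and on the dimmer on 0 of 15. For Grm2 it was above background on 15 of 15. Background-corrected Cy3 intensity on the brightest Grm5 probe lay between 16 and 30 in ERD, 26 and 41 in BLD, and 22.5 and 30.5 in STD. The hemibrain intensity on the same probe lay between 186 and 1052 in ERD, 437.5 and 1182.5 in BLD, and 332.5 and 1252.5 in STD.

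The Grm5 ratio differed between settings. In the log ratios deposited by the authors, which were made by the scanner software without this offset, the Grm5 log2 ratio averaged 9.13 ± 1.17 in ERD, 8.28 ± 0.38 in BLD and 9.70 ± 0.51 in STD (SD, n = 5 each). There the BLD arrays lay between 7.91 and 8.86 and the STD arrays between 9.11 and 10.44. The share of all genes without overlap was not counted in the deposited ratios, so this separation cannot be set beside it. The log2 difference in BLD against STD was -1.42 with a limma adjusted p of 0.267. With normexp and loess the same difference was -0.04 at offset 50 and -0.53 at offset 1, and the log2 Cy5 level differed by 0.14. The deposited ratios differ from these in background correction and normalization as well as in the offset, and the part of each was not tested.

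**Figure D4:**
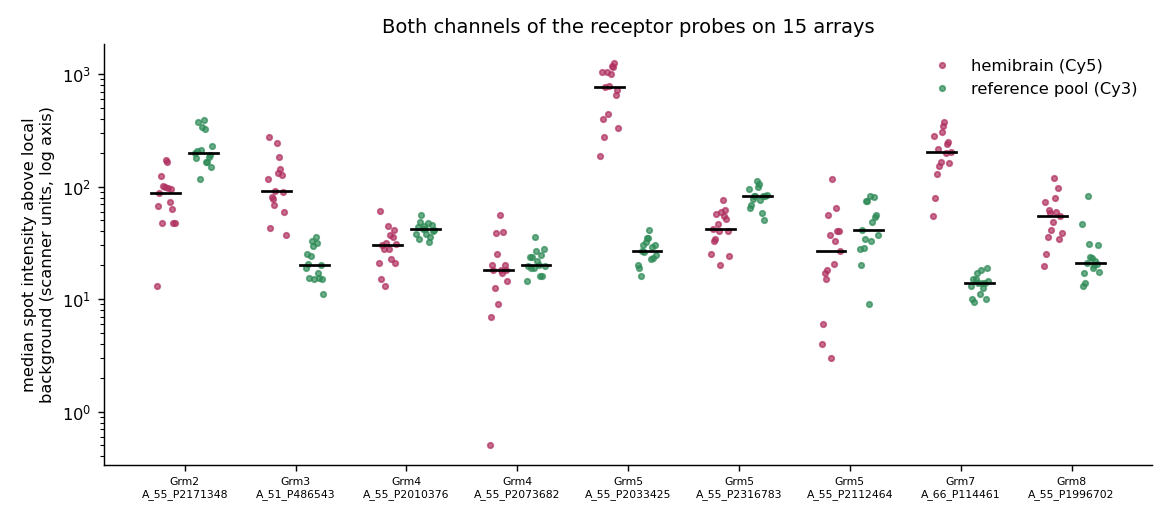
Background-corrected intensity (vertical axis, log scale) of the hemibrain channel (Cy5, left) and of the cell-line pool (Cy3, right) is shown for the 9 receptor probes on the 15 arrays. Each point is 1 array and the black line is the median of 15. For Grm3, Grm7, Grm8 and the brightest Grm5 probe the Cy5 points lie mostly or wholly above the Cy3 points, which are dim, while for Grm2 the Cy3 points are the brighter ones.

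Across the 15 arrays some receptors varied together. Pearson's r was 0.71 for Grm7 with Grm8, 0.71 for Grm5 with Grm8, 0.65 for Grm3 with Grm4 and 0.58 for Grm5 with Grm7, and it was -0.28 for Grm2 with Grm4. These are descriptions over arrays that share array quality, loess normalization and one reference pool. The genes most like each receptor, out of 13664 with a symbol, were named by the highest r. They were Sirt2 (0.94), Palm (0.93) and Usp11 (0.93) for Grm2, and Abhd6 (0.95), Palm3 (0.92) and Capn3 (0.90) for Grm3. For Grm4 they were Mapk1ip1 (0.90), Gnb5 (0.89) and Cd93 (0.88). For Grm5 they were Adcy2 (0.91), Sybu (0.90) and Pcnx (0.90), for Grm7 Arhgap36 (0.97), Trmt9b (0.95) and Tspan12 (0.93), and for Grm8 Zfp14 (0.92), Cmpk2 (0.91) and Lypd6 (0.90).

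The genes through which these receptors act did not pass the test either. Of the 21 measured partners and effectors of group I receptors, 0 were called by limma in ERD against STD, BLD against STD and ERD against BLD. Their median log2 difference was -0.10 in ERD against STD, beside 0.02 over all genes, with 5 higher and 16 lower means, of which 2 and 5 had an unadjusted p under the threshold. Over all genes 47.0% were lower and 14.6% had such a p in this comparison, shares against which the counts of the other lists in ERD against STD can be read too. Prkcb, a protein kinase C isoform activated by diacylglycerol, had a mean log2 ratio of 4.41 ± 0.27 in ERD and 4.99 ± 0.17 in STD hemibrains (SD, n = 5 each), a log2 difference of -0.58 with a limma adjusted p of 0.123. Homer2, a scaffold that binds group I receptors, averaged 0.72 ± 0.45 in ERD and 1.69 ± 0.39 in STD hemibrains (SD, n = 5 each), with a limma adjusted p of 0.132. In BLD against STD the list's median log2 difference was 0.10, and in ERD against BLD it was -0.21.

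Of the 21 measured partners and effectors of group II and group III receptors, 0 were called in the same 3 comparisons. Their median log2 difference was -0.16 in ERD against STD, with 4 higher and 17 lower means (1 and 4 by unadjusted p), 0.04 in BLD against STD and -0.18 in ERD against BLD. Gnai2, an inhibitory G protein alpha subunit, averaged 0.97 ± 0.32 in ERD and 0.35 ± 0.19 in STD hemibrains (SD, n = 5 each), a log2 difference of 0.62 with a limma adjusted p of 0.132. Gnb1, a G protein beta subunit, averaged 1.04 ± 0.56 in ERD and 1.74 ± 0.07 in STD hemibrains (SD, n = 5 each), a log2 difference of -0.70 with a limma adjusted p of 0.172. The alpha and beta subunits named here thus lay on opposite sides of STD.

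Receptor desensitization and trafficking had 17 measured genes and 0 calls in the 3 comparisons, with 8 higher and 9 lower means in ERD against STD (3 and 1 by unadjusted p). Grk6, a G protein-coupled receptor kinase, gave a log2 difference of 0.45 in ERD against STD (limma adjusted p = 0.198), and Gripap1, a protein of endosomal receptor recycling, gave 0.50 (limma adjusted p = 0.218). Glutamate supply and clearance had 18 measured genes and 0 calls, with 5 higher and 13 lower means in ERD against STD (1 and 3 by unadjusted p) and a median log2 difference of -0.11. Glul, the glutamine synthetase of astrocytes, averaged 5.05 ± 0.48 in ERD and 5.61 ± 0.21 in STD hemibrains (SD, n = 5 each), with a limma adjusted p of 0.219.

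The hemibrain label was checked on markers. All 9 measured neuron markers, among them Snap25 and Syt1, had hemibrain signal above background on all 15 arrays. Their mean log2 ratio per array ran between 3.80 and 4.50 in ERD, 4.22 and 4.76 in BLD, and 4.32 and 4.75 in STD, and 0 of them were called by limma in the 3 comparisons, with 1 higher and 2 lower by unadjusted p in ERD against STD. The 10 cerebral cortex markers ran between 1.41 and 2.54 in ERD, 2.18 and 2.62 in BLD, and 2.12 and 2.59 in STD. In ERD against STD the median log2 difference per marker list lay between -0.38 for olfactory bulb and 0.04 for erythroid cells, beside 0.02 over all genes. Only the erythroid and cerebellar lists had a positive median. The lowest array mean was on the ERD diet for 11 of the 13 lists of cell type and region markers, glial and vascular ones included, and on the BLD diet for the other 2. The lowest array was likewise an ERD array for Grm2, Grm5, Grm7 and Grm8, and the part of the marker shift in the receptor values was not tested.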

How the data were processed

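Hemibrain RNA of 15 mice, 5 per diet, was measured on Agilent 2-colour arrays. The deposited scanner files hold spot intensities in both channels, per the file headers from Agilent Feature Extraction 11.5.1.1 (10.7 per the submitters' processing notes). The deposited value table holds log10 ratios of Cy5 over Cy3 that equal the scanner's own to within 5e-10. All arrays have the same dye orientation, so a dye effect was not estimated.

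Median intensities were corrected with normexp (offset 50) and loess-normalized within arrays, control spots weighted 0 (R 4.3.3, limma 3.58.1). Outlier spots (0.574%) were left out and spots of a probe averaged. A probe was kept (26348 were) if at least 5 arrays had it well above background in Cy5 and at least 8 gave a value. The brightest probe stood for each symbol, which gave 22557 genes (13763 with a symbol). One limma model over 15 arrays (12 residual degrees of freedom) gave the 3 comparisons, 2-sided. No spot holds counts, so the number of arrays limits the precision.

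Groups come from the diet labels, since all titles carry the word control. The receptors, the lists of partners and markers, and the tests were chosen with earlier results of these data known. Named list genes are those past the threshold or else the 2 of lowest p in ERD against STD, and likeness took the 3 highest correlations. The values of 1 such list gene are not reported here. RefSeq sequences and symbols are on GRCm38.p6, whereas the headers name an older build, so the only coordinates given are those of the RefSeq promoter windows.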

Additional observations from a re-analysis of the deposited data

Results flagged for a closer look

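Among 27 groups of 5 arrays, 9 probes on 3 diets, 3 had 1 array far from the other 4, where chance alone gives about 1 in 20 groups. For Grm2, BLD 1 had a log2 ratio of 1.58, the next BLD array 1.26 and the lowest 1.21, so the 4 others lay close together. For the brighter Grm4 probe, ERD 2 had a log2 ratio of 1.60, the next ERD array 0.74 and the lowest 0.46. For the dimmer Grm4 probe, STD 2 had 1.12, the next STD array 0.69 and the lowest 0.53.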

How the results depend on the processing

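Of 498 values for the 18 receptor differences under 28 other settings, 0 passed the threshold, 439 kept their direction and 59 reversed, 37 of these with all arrays in. The cause of the reversals was not tested. Some settings could not change a difference, so the 439 do not measure stability. These were quantile scaling of average intensities between arrays, no detection filter, detection on all 15 arrays and every probe singly. Leaving out an array of the diet outside a comparison could not change it either.

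In the deposited ratios the difference was -0.15 for Grm3 and 0.023 for Grm8 in ERD against STD. It was -1.03, -0.86 and -0.35 for Grm3, Grm7 and Grm8 in BLD against STD, and 0.89, 0.85, 0.054 and 0.37 for Grm3, Grm5, Grm7 and Grm8 in ERD against BLD. With an offset of 1, Grm3, Grm7 and Grm8 were -0.25, -0.22 and -0.40 in BLD against STD, and Grm3, Grm5 and Grm8 0.53, 0.24 and 0.15 in ERD against BLD. With Cy5 alone, Grm2 and Grm4 were 0.16 and 0.11 in ERD against STD, Grm7 and Grm8 -0.077 and -0.10 in BLD against STD, and Grm3 and Grm8 0.27 and 0.055 in ERD against BLD. The mean of its probes gave Grm4 0.012 in BLD against STD and -0.20 in ERD against BLD. Slide as a fixed block gave Grm4 0.20, 0.24 and -0.039 in ERD against STD, BLD against STD and ERD against BLD, and Grm5 0.64 in BLD against STD. Slide as a random block gave Grm4 0.00067 in ERD against STD and Grm5 0.14 in BLD against STD, and scan day as a block gave Grm5 0.58 there. Array weights gave Grm2 0.031 and Grm3 -0.069 in ERD against STD and Grm4 -0.020 in ERD against BLD. The share of spots detected as a covariate gave Grm2 0.054 and Grm4 0.065 in ERD against STD, Grm8 -0.030 in BLD against STD and Grm3 0.091 in ERD against BLD.

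Larger moves without reversal were those of Grm7 in ERD against BLD (-0.87), to -0.42 with the covariate and -0.16 with Cy5 alone, of Grm8 with the covariate, from -0.31 to -0.075 in ERD against STD and from -0.38 to -0.045 in ERD against BLD, and with slide as a fixed block of Grm7, to -0.14 in ERD against STD (-0.71) and 0.91 for BLD against STD (0.16), and of Grm5, to -1.31 in ERD against BLD (-0.70).

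The 49 genes called in ERD against STD became 32 with detection on all 15 arrays (which left no value for Grm2 and Grm4), 1 with slide as a fixed block, 101 as a random block, 11 with scan day, 126 with array weights and 92 with the covariate. The 2 called in BLD against STD became 1 in the deposited ratios, 1 with offset 1, 5 without a filter, 5 with detection on all arrays, 0, 7 and 1 with slide fixed, slide random and scan day, and 27 with array weights. The 0 called in ERD against BLD became 1 with slide as a fixed block.

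Leaving out each array gave 5 (without ERD 4) to 170 calls (without ERD 3) in ERD against STD, 1 to 10 in BLD against STD and 0 to 1 in ERD against BLD. In ERD against STD the receptors then ranged over -0.16 to 0.16 (Grm2), -0.088 to 0.57 (Grm3), -0.21 to 0.071 (Grm4), -1.08 to -0.47 (Grm5), -1.03 to -0.42 (Grm7) and -0.49 to -0.15 (Grm8). In BLD against STD they ranged over 0.27 to 0.39, 0.18 to 0.64, -0.18 to 0.017, -0.32 to 0.15, 0.01 to 0.31 and -0.11 to 0.23 in the same order. In ERD against BLD they ranged over -0.50 to -0.18, -0.53 to 0.13, -0.12 to 0.17, -1.03 to -0.43, -1.19 to -0.58 and -0.57 to -0.20. The lowest adjusted p, in limma, was 0.218, for Grm7 in ERD against STD without ERD 2. No paired analysis was possible because the labels give no replicate numbers shared between diets.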
